A study of Mus musculus with 6 samples.

Results

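Nuclear receptors are transcription factors that carry their own sensor: a ligand-binding pocket for a steroid, thyroid hormone, a vitamin, a lipid or a drug, joined to a zinc-finger domain that binds DNA. Many of them bind as heterodimers with a retinoid X receptor (RXR), others bind as homodimers or alone, and several orphan members have no known natural ligand. In the gut they read bile acids, dietary lipids, vitamins A and D, glucocorticoids, aldosterone and the time of day, and they share the six-base half-site AGGTCA or a variant of it with HNF4α, itself a nuclear receptor. A list of 38 genes of this family, chosen by name without HNF4 and FXR, was followed in mouse colon from which Hnf4α had been removed. The list is not the complete family, and Ppara, for one, is not on it.

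RNA had been prepared from the proximal colon of 3 Hnf4α mutant mice and 3 control littermates at 1 year of age, and each mouse had been hybridised to its own Affymetrix whole-genome mouse array. The mutants were 12.4 KbVilCre/Hnf4α loxP-loxP animals, in which the Villin promoter directs Cre, and with it the deletion, to the epithelium of the intestine, so that muscle, connective tissue, nerve and immune cells of the same sample keep the gene. The controls are labelled as wildtype, and whether they carried loxP alleles is not given in the sources used here. All mice had received ketamine and xylazine before they were killed. Of the 38 genes, 37 had a probe set that the array annotation assigns to that gene alone, with 98 such probe sets in all, against 18193 genes on the whole array. Nr1h2 had none and was not analysed here. Where a gene had more than 1, the brightest on average stands for it, and the others did not always share its direction. Values are log2 signals, so that a difference of 1 is a 2-fold change, and they are given for replicates 1, 2 and 3 in that order.

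Hnf4a itself had 10.17, 10.09 and 10.15 in the mutants, against 12.23, 12.01 and 11.97 in the controls (log2 fold change -1.94, standard error (SE) 0.10, adjusted p = 0.000788 from limma). The labels give male for mutant replicates 2 and 3 only, yet the female-specific RNA Xist lay between 5.03 and 5.32 in all 3 mutants, against 9.94 to 10.96 in the controls, and the Y-linked Eif2s3y between 7.85 and 8.12 in the mutants, against 2.75 to 3.16 in the controls. Sex and genotype therefore cannot be told apart in any value given here. Mutant replicate 2 also stood apart: relative to the control mean, the median of 15 smooth muscle markers was -3.72 in this array, against -0.26 and -0.45 in mutant replicates 1 and 3, and that of 14 fibroblast and matrix markers was -3.27, against -0.07 and -0.34. The median signal of the smooth muscle markers ran between 7.74 and 11.42 in the mutants and between 11.44 and 11.82 in the controls, that of the fibroblast and matrix markers between 6.10 and 9.44 in the mutants and between 9.48 and 9.81 in the controls. The median of 14 gut epithelium markers was 0.12, 0.21 and 0.19 in mutant replicates 1, 2 and 3. A lower signal of whole tissue may stand for fewer cells of a type or for less RNA per cell, which cannot be told apart.

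The receptors spanned a wide range of signal in control colon. The highest control means belonged to the vitamin D receptor Vdr (10.89), the clock repressor Nr1d2 (10.52), the fatty acid sensor Pparg (10.12), the glucocorticoid receptor Nr3c1 (9.81), Ppard (9.77), Nr1d1 (9.52), the estrogen-related receptor Esrra (9.36) and the mineralocorticoid receptor Nr3c2 (9.36). The lowest were the orphan receptor Nr2f1 (3.92), the progesterone receptor Pgr (3.51) and Nr0b1 (3.21), a receptor without a DNA-binding domain that acts in adrenal and gonad. Probe sets differ in affinity, so this is an order of signals and not of RNA amounts. As a guide to background, 19 genes of other organs, which colon should lack, had control means between 3.28 and 7.23 with a median of 4.37. Of the 37 receptors, 18 had a control mean at or below the highest of these, and 4 (Rarb, Nr2f1, Pgr and Nr0b1) lay at or below their median, where a true fall could hardly be seen.

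**Figure D1:**
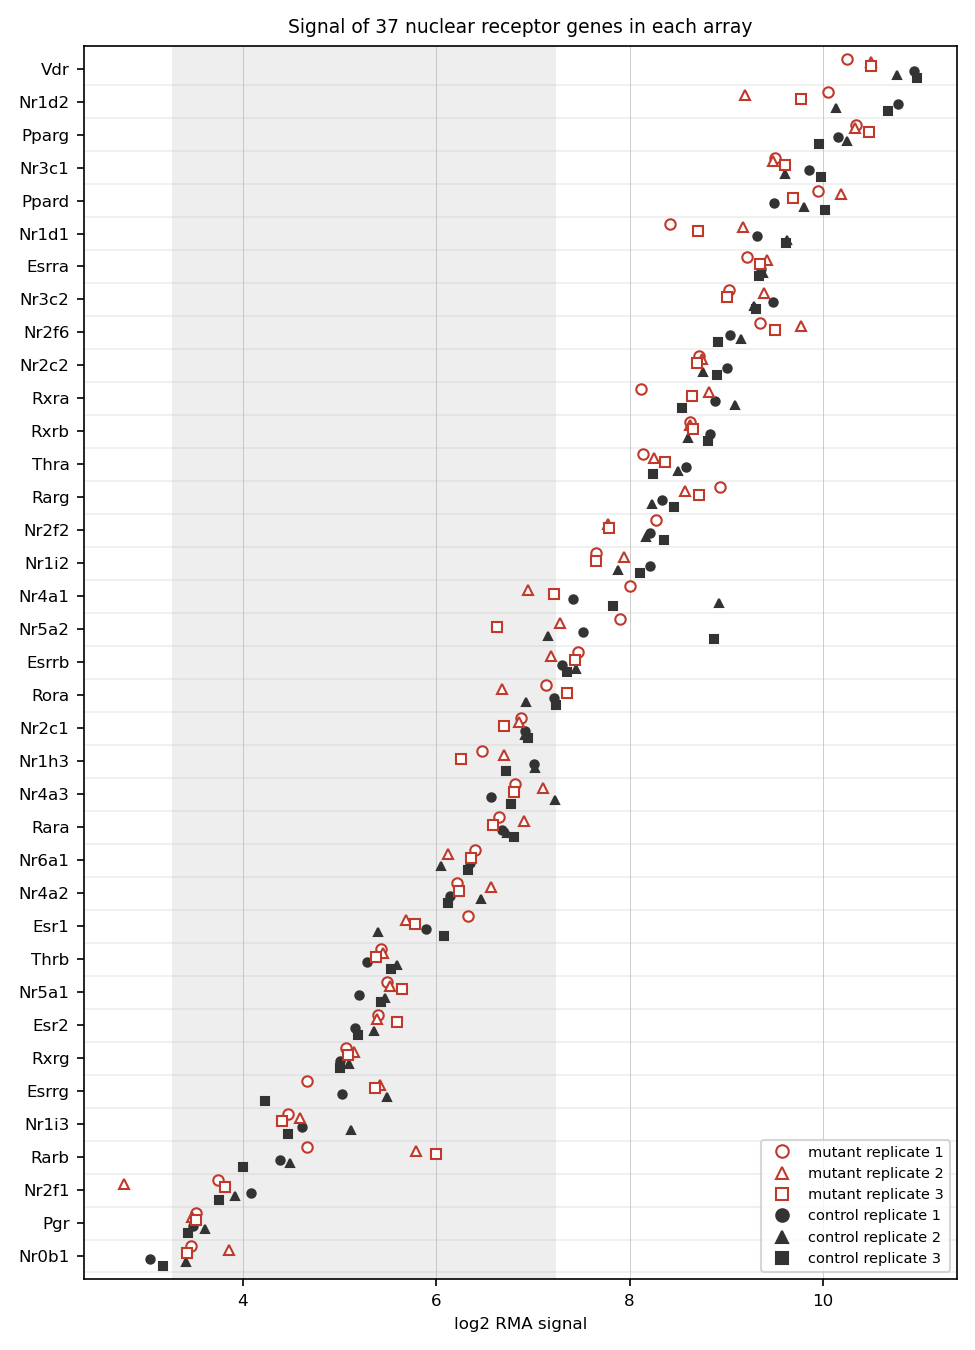
Log2 RMA signal (horizontal axis) of 37 nuclear receptor genes in each array, ordered by control mean; open symbols are the 3 Hnf4α mutants, filled symbols the 3 controls, and the grey band spans the control means of 19 genes of other organs, 3.28 to 7.23. Vdr, Nr1d2 and Nr1d1 have every mutant to the left of every control, and Rarb has every mutant to the right.

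None of the 37 receptors passed the test in the mutants. At an adjusted p under 0.05 from limma, 0 rose and 0 fell, where 0.484% of all genes rose and 0.396% fell. With each receptor at its brightest probe set, the lowest adjusted p was 0.170, for Vdr. A dimmer probe set of Nr3c1 had 0.120. At or below an unadjusted p of 0.05, limma gave 3 receptors with higher signal (Nr2f6, Rarg and Rarb), or 8.11% against 10.0% of all genes, and 6 with lower signal (Vdr, Nr1d2, Nr1d1, Nr1h3, Nr1i2 and Nr3c1), or 16.2% against 6.18% of all genes. At the same unadjusted threshold, significance analysis of microarrays (SAM) gave 3 higher and 4 lower. The 3 mutants lay above the 3 controls for 7 receptors, or 18.9% against 14.5% of all genes, and below them for 7, or 18.9% against 8.86% of all genes, while the groups overlapped for the other 23. Of the 7 above, 4 (Rarb, Esr2, Nr5a1 and Nr0b1) had control means at or below the highest of the genes of other organs. So had 2 of the 7 below, Nr1h3 and Nr2c1, but only through the value of Oxt. The genes of other organs had slightly higher signal in the mutants themselves, with 18 of 19 log2 fold changes positive, a median of 0.14 and the mutants above the controls for 4.

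The differences were small. The median log2 fold change of the receptors was -0.05, against 0.05 for all genes, with 14 positive and 23 negative values, and the median absolute log2 fold change was 0.22, against 0.15 for all genes. Of the 37 receptors, 31 had an absolute log2 fold change under 0.5, and Rarb was the 1 receptor that reached 1. Standard errors ran between 0.09 and 0.49. The 95% confidence interval of the log2 fold change lay within -1 and 1 for 30 receptors and within a 1.5-fold change either way for 19. The intervals of Rarb, Nr1d2, Nr1d1, Nr4a1, Nr5a2, Nr2f1 and Esrrg reached beyond a 2-fold change. Of the 30 narrow intervals, 15 belong to the 19 receptors with a control mean above that of every gene of other organs. The other 15 belong to the other 18 receptors, where a low signal can compress a difference. Rora, Nr2c1, Nr1h3, Nr4a3 and Rara are among these 18 only through the value of Oxt.

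**Figure D2:**
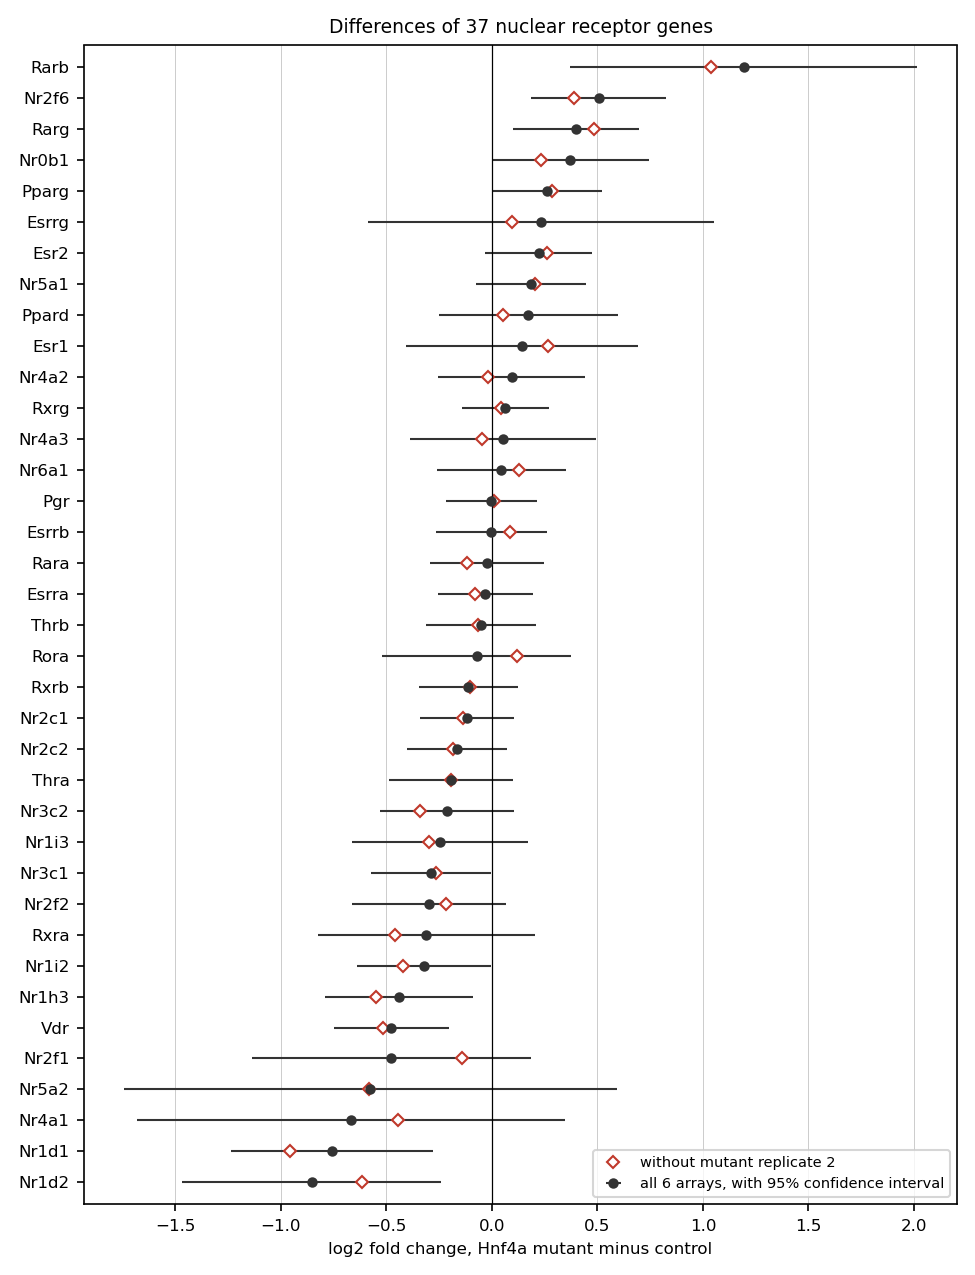
Log2 fold change, Hnf4α mutant minus control (horizontal axis), of 37 nuclear receptor genes; open diamonds leave out mutant replicate 2, and filled points with bars are all 6 arrays with the 95% confidence interval. Most intervals cross 0, and the values run between -0.85 for Nr1d2 and 1.19 for Rarb.

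The lipid, vitamin D and xenobiotic receptors held 3 of the 6 genes with lower signal. That count is at or below an unadjusted p of 0.05, where 6.18% of all genes were lower. Vdr, which binds calcitriol and drives calcium uptake, had 10.25, 10.50 and 10.50 in the mutants, against 10.94, 10.76 and 10.97 in the controls. Every mutant lay below every control, with a log2 fold change of -0.48 (SE 0.12, unadjusted p = 0.00459 and adjusted p = 0.170 from limma), and the second probe set of Vdr gave -0.43. Nr1h3 encodes LXRα, the oxysterol sensor that governs cholesterol efflux. Its signal was 6.47, 6.70 and 6.26 in the mutants, against 7.01, 7.02 and 6.72 in the controls, again without overlap (-0.44, SE 0.15, adjusted p = 0.297). Nr1i2, the pregnane X receptor PXR that induces drug-metabolising enzymes, had 7.65, 7.95 and 7.65 in the mutants, against 8.21, 7.88 and 8.11 in the controls. The groups overlapped here, through mutant replicate 2 and control replicate 2 (-0.32, SE 0.13, adjusted p = 0.381). Its partner in xenobiotic sensing, the androstane receptor CAR encoded by Nr1i3, had a signal near background and a log2 fold change of -0.25. The peroxisome proliferator-activated receptors leaned the other way. Pparg, abundant in colon epithelium and a driver of lipid storage in fat, had 10.34, 10.33 and 10.47 in the mutants, against 10.16, 10.25 and 9.96 in the controls, all mutants above all controls by a narrow margin (0.26, SE 0.11, unadjusted p = 0.0502 and adjusted p = 0.385). Ppard, which promotes fatty acid oxidation, had 9.95, 10.19 and 9.69 in the mutants, against 9.49, 9.80 and 10.02 in the controls, with overlapping groups (0.17).

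Both REV-ERB receptors, the heme-binding repressors that close the second loop of the circadian clock, had lower signal. Nr1d1 (REV-ERBα) had 8.42, 9.17 and 8.71 in the mutants, against 9.31, 9.62 and 9.62 in the controls, a log2 fold change of -0.76 (SE 0.20, unadjusted p = 0.00742 and adjusted p = 0.207). Nr1d2 (REV-ERBβ) had 10.05, 9.19 and 9.77 in the mutants, against 10.77, 10.13 and 10.67 in the controls, a log2 fold change of -0.85 (SE 0.26, adjusted p = 0.256), and its second probe set gave -0.77. Every mutant was below every control for both genes, but the arrays did not rank alike: mutant replicate 2, low in muscle and matrix markers, was the highest mutant for Nr1d1 and the lowest for Nr1d2. Without this array Nr1d1 had -0.96 (adjusted p = 0.104) and Nr1d2 -0.61 (adjusted p = 0.446). Rora, the activator that competes with them for the same DNA element, had -0.07, and 0.12 without mutant replicate 2. Its 9 probe sets ran between -0.28 and 0.37. The hour at which the mice were killed is not given in the sources used here, and REV-ERB RNA swings widely over the day. The annotated spans of Nr1d1 and Thra overlap on chromosome 11, and Thra, the thyroid hormone receptor α, had a log2 fold change of -0.19 with overlapping groups.

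The 250 bases before the annotated start of both REV-ERB genes are shown because these receptors shared a direction and both are known to sit under clock E-boxes and receptor half-sites. The sequences are from RefSeq on GRCm38.p6, Nr1d1 at chr11:98775378-98775627 and Nr1d2 at chr14:18239107-18239356, both on the minus strand. Capitals mark the HNF4 core AAAGTCCA and the half-site AGGTCA, searched on both strands together with the E-box CACGTG.
Nr1d1: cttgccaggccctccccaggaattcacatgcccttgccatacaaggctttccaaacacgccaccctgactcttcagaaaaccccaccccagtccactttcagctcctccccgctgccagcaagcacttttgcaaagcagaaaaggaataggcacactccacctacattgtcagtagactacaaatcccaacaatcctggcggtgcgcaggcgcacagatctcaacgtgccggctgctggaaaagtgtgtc
Nr1d2: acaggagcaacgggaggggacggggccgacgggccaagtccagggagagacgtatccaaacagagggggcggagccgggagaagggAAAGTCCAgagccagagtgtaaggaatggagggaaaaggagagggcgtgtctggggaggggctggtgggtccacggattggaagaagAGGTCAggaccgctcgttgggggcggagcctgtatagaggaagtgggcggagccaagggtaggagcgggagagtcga
The Nr1d2 window held AAAGTCCA starting 164 bases before the start and AGGTCA starting 77 bases before it, while the Nr1d1 window held none of the 3 motifs. Among 32851 mouse promoters, searched over the same 250 bases, AAAGTCCA was in 1.01%, AGGTCA in 14.0% and CACGTG in 6.02%. Promoters were found for 35 of the 38 receptor genes, 54 in all, and AAAGTCCA was in 1 of these, AGGTCA in 10 and CACGTG in 4. These are matches of letters in a short window and not measured binding.

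Among the thyroid hormone and retinoid receptors, 2 of the 3 retinoic acid receptors had higher signal. That count is at or below an unadjusted p of 0.05, where 10.0% of all genes were higher. Rarg had 8.93, 8.57 and 8.71 in the mutants, against 8.34, 8.23 and 8.46 in the controls, without overlap (log2 fold change 0.40, SE 0.13, adjusted p = 0.273), and its second probe set gave 0.48. Rarb, a receptor that is itself a classical target of retinoic acid, had 4.66, 5.79 and 6.001 in the mutants, against 4.38, 4.49 and 3.998 in the controls. The mean difference was 1.19 (2.29-fold, SE 0.35, unadjusted p = 0.0110 and adjusted p = 0.239), and it came from mutant replicates 2 and 3, with mutant replicate 1 only just above the highest control. Without mutant replicate 1 the log2 fold change of Rarb was 1.61 and passed the test (adjusted p = 0.0425 from limma), the 1 receptor to do so in any setting tried. Mutant replicate 1 is also the mutant labelled female, although its Xist and Y-linked RNA were those of the other mutants. Because the control mean of Rarb, 4.29, was within the signal of genes that colon should lack, the fold change may be compressed. The mutant values also lay within the 3.28 to 7.23 of those genes, so Rarb signal cannot be told from background in either group. Rara had a log2 fold change of -0.02, the shared partners Rxra, Rxrb and Rxrg had -0.31, -0.11 and 0.06, and Thrb had -0.05, all with overlapping groups. The other probe sets of Rxra gave -0.06 and 0.13.

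The promoter of Rarb is shown for its retinoic acid response element, a direct repeat of half-sites 5 bases apart (DR5). The window, RefSeq GRCm38.p6 chr14:16575477-16575726 on the minus strand, is the 250 bases before an annotated start, and capitals mark the match to the pattern searched.
Rarb: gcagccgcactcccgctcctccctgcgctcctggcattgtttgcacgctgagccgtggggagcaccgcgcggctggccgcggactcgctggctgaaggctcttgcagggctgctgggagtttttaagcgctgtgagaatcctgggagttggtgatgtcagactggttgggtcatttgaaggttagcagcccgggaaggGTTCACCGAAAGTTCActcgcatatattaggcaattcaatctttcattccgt
The capitals start 52 bases before the annotated start, and the g just before them completes the first half-site, GGTTCA. The pattern searched, GTTCA, any 5 bases and AGTTCA on either strand, has the half-site letters of the Rarb element itself, so its match there was fixed in advance. It was in 9 of 32851 mouse promoters (0.0274%), and in none of the other receptor promoters. This share is that of these letters and not of DR5 elements with other half-sites.

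Of the steroid receptors, Nr3c1 had 9.50, 9.48 and 9.60 in the mutants, against 9.86, 9.61 and 9.98 in the controls, with mutant replicate 3 only just below control replicate 2 (log2 fold change -0.29, SE 0.12, adjusted p = 0.382). Its 6 probe sets ran between -0.46 and 0.14, so the direction was not shared by all of them. The only positive value, 0.14, was that of the dimmest probe set, with a mean signal of 5.10. For the probe set at -0.46 every mutant lay below every control (adjusted p = 0.120 from limma). Nr3c2, the aldosterone sensor that raises sodium uptake in distal colon, had 9.02, 9.39 and 9.01 in the mutants, against 9.48, 9.29 and 9.30 in the controls. The groups overlapped through mutant replicate 2 (-0.21, and -0.34 without that array). The sex hormone receptors Esr1, Esr2 and Pgr had log2 fold changes of 0.14, 0.22 and -0.0019. Their control means, 5.79, 5.24 and 3.51, were within the range of the genes of other organs, where a low signal can compress a difference. The RNA of the 3 mutants was of the male type and that of the controls of the female type. The estrogen-related receptors, which drive genes of mitochondrial respiration, had overlapping groups. Esrra had 9.21, 9.42 and 9.35 in the mutants, against 9.36, 9.38 and 9.34 in the controls (-0.03), while Esrrb and Esrrg had log2 fold changes of -0.0032 and 0.23.

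Of the NR2 orphan receptors, 1 of 5 had higher signal at or below an unadjusted p of 0.05 (10.0% of all genes). Nr2f6, also called EAR2, a member of the COUP-TF branch known as a repressor in T cells, had 9.35, 9.77 and 9.50 in the mutants, against 9.04, 9.15 and 8.92 in the controls. Every mutant was above every control (log2 fold change 0.51, SE 0.14, unadjusted p = 0.00742 and adjusted p = 0.207), and the second probe set gave 0.49. Its relatives Nr2f1 (COUP-TFI) and Nr2f2 (COUP-TFII), which are known from mesenchyme, neurons and vessels, had -0.48 and -0.30. For Nr2f1 the difference came from mutant replicate 2 at 2.77, against 3.74 and 3.82 in the other mutants, and the log2 fold change was -0.14 without that array. The testicular receptors Nr2c1 and Nr2c2 had the groups apart with differences of only -0.12 and -0.17.

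Among the NR4A, NR5A, NR6A and NR0B receptors, Nr4a1 and Nr5a2 varied widely between mice, with SEs of 0.43 and 0.49 against a median SE of 0.13 over the 37 receptors. Nr4a1, an immediate early receptor induced within minutes by many stimuli, had 8.004, 6.95 and 7.22 in the mutants, against 7.42, 8.92 and 7.83 in the controls. Each group spanned more than the difference between the means, -0.67 (95% confidence interval -1.68 to 0.35). Its relatives Nr4a2 and Nr4a3 had 0.09 and 0.05. The 6 probe sets of Nr4a2 ran between -0.39 and 0.12. Nr5a2 (LRH-1), which supports crypt renewal and local glucocorticoid synthesis, had 7.90, 7.28 and 6.63 in the mutants, against 7.52, 7.16 and 8.87 in the controls. A single high control thus lay behind its mean difference of -0.58, with an interval of -1.74 to 0.59. Nr0b1, on the X chromosome, had 0.37 (adjusted p = 0.386) at background signal, Nr5a1, the steroidogenic factor of adrenal and gonad, had 0.19, and Nr6a1, a germ cell receptor, had 0.04.

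Mutant replicate 2 was the lowest of the 6 arrays for 7 receptors (Nr1d2, Nr3c1, Nr2f2, Nr4a1, Esrrb, Rora and Nr2f1), or 18.9%, against 15.7% of all genes. Without it, 0 receptors were called, 3 had higher signal at or below an unadjusted p of 0.05 (Nr2f6, Rarg and Rarb) and 6 had lower signal (Vdr, Nr1d2, Nr1d1, Nr1h3, Nr1i2 and Nr3c2). The median log2 fold change of the receptors was then -0.08, against 0.03 for all genes. The part of the muscle and matrix RNA in these values was not tested.

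**Figure D3:**
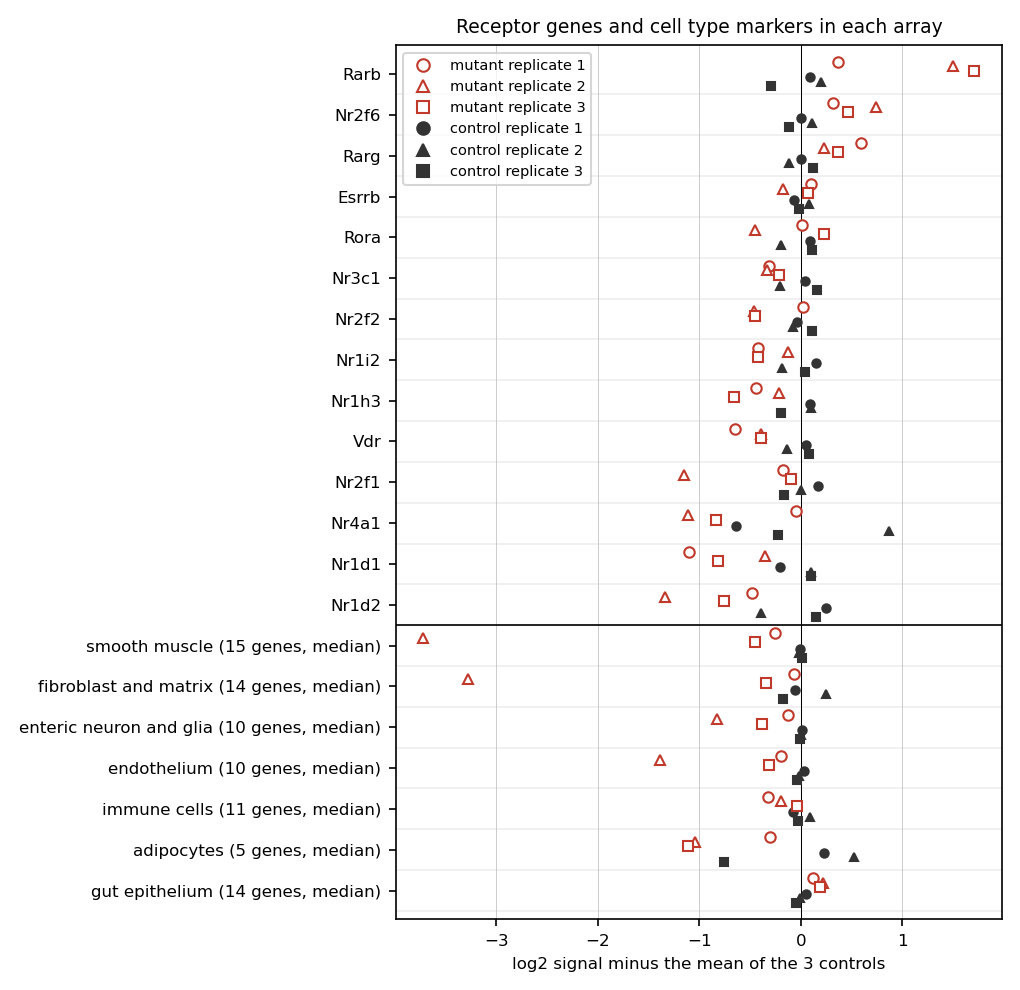
Deviation of the log2 signal from the control mean (horizontal axis) in each array, for 14 receptor genes (top) and for the medians of 7 marker lists (bottom); open symbols are the 3 mutants and filled symbols the 3 controls. Mutant replicate 2 (triangle) stands at -3.72 for smooth muscle and -3.27 for fibroblast and matrix markers, and is the highest mutant for Nr1d1 but the lowest for Nr1d2 and Nr2f1.

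Genes known to respond to these receptors were followed to see what accompanied the receptor values. Their lists were chosen with earlier results of these data known, so their shares beside all genes are a description and not a test. Of 112 such genes measured, counted once each, 0 rose and 2 fell (1.79%, against 0.396% of all genes), and at or below an unadjusted p of 0.05 17 were higher (15.2%, against 10.0% of all genes) and 21 lower (18.8%, against 6.18% of all genes), with a median log2 fold change of 0.01. SAM called none at an adjusted p under 0.05. Ces2a, a carboxylesterase and PXR target, had 5.13, 6.91 and 5.48 in the mutants, against 11.67, 11.84 and 10.80 in the controls (-5.59, SE 0.49, adjusted p = 0.00977 from limma). Among the 13 PXR and CAR targets measured, 3 were higher and 4 lower at or below an unadjusted p of 0.05. Besides Ces2a, the lower ones were Cyp3a13 (-1.25, adjusted p = 0.305), Cyp3a25 (-0.71) and Cyp3a11 (-0.54). Cyp3a25 and Cyp3a11 had control means of only 3.88 and 4.01. The higher ones were Cyp2c65, a cytochrome P450 (0.59, adjusted p = 0.0737), which rose with array weights (0.56, adjusted p = 0.0493), averaged probe sets (0.59, adjusted p = 0.0406) and a trended, robust variance (0.59, adjusted p = 0.0376), the heme synthesis enzyme Alas1 (1.14, adjusted p = 0.188) and Gstm1, a glutathione transferase (0.41, adjusted p = 0.257). The other fall was in Mt2, a metallothionein induced by glucocorticoids and metals, with 8.21, 7.58 and 8.29 in the mutants, against 11.38, 10.57 and 10.19 in the controls (-2.69, SE 0.33, adjusted p = 0.0297). Ces2a was not called without control replicate 1 (-5.48, adjusted p = 0.0788) or mutant replicate 3 (-5.42, adjusted p = 0.0597). Mt2 was called without control replicate 3 (-2.95, adjusted p = 0.0454), and not without control replicate 1 (-2.35, adjusted p = 0.0788), control replicate 2 (-2.76, adjusted p = 0.0514), mutant replicate 1 (-2.78, adjusted p = 0.0704), mutant replicate 2 (-2.46, adjusted p = 0.0654) or mutant replicate 3 (-2.82, adjusted p = 0.116). Its neighbour in function Mt1 differed in direction, 0.48 (adjusted p = 0.232).

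Vitamin D targets had values of both signs. Of 9 measured, 6 had positive and 3 negative log2 fold changes, none passed the test, and 2 were higher and 2 lower at or below an unadjusted p of 0.05, where 10.0% of all genes were higher and 6.18% lower. Trpv6, the apical calcium channel, had 6.08, 8.21 and 8.57 in the mutants, against 5.57, 6.05 and 5.53 in the controls (1.90, SE 0.61, adjusted p = 0.281). S100g, the calcium carrier calbindin-D9k, had 8.73, 9.93 and 10.67 in the mutants, against 8.15, 8.70 and 7.77 in the controls (1.57, SE 0.48, adjusted p = 0.264). For both genes all mutants were above all controls, and mutant replicate 1 was the lowest mutant, as it was for Rarb. Without mutant replicate 1, Trpv6 rose (2.67, adjusted p = 0.0127). Slc34a2, a phosphate transporter whose induction is better known in small intestine, had -0.63.

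Of 14 clock genes none passed the test. Per1, a core repressor, had 7.22, 6.92 and 7.73 in the mutants, against 8.22, 8.28 and 8.21 in the controls (-0.95, SE 0.20, adjusted p = 0.121), and Cry2 had -0.38. Arntl (BMAL1), the activator that REV-ERBs repress, had 6.69, 7.58 and 6.93 in the mutants, against 6.70, 6.47 and 6.23 in the controls (0.60, adjusted p = 0.368), with mutant replicate 1 within the controls. Without mutant replicate 2 this probe set gave 0.34, and the second probe set of Arntl gave 0.02 over all 6 arrays. The 14 genes had a median log2 fold change of -0.26, and -0.05 without mutant replicate 2. Of 14 glucocorticoid targets, 4 were lower and 1 higher at or below an unadjusted p of 0.05 (6.18% and 10.0% of all genes), among them Per1, Mt2, Klf9 (-0.80, adjusted p = 0.140), a Krüppel-like repressor, and Tsc22d3 (-0.92, adjusted p = 0.188), which encodes the glucocorticoid-induced leucine zipper.

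The other lists held genes of both directions. At or below an unadjusted p of 0.05, where 10.0% of all genes were higher and 6.18% lower, 3 of 11 PPAR targets were lower and none higher. The 3 were Fabp4 (-1.13, adjusted p = 0.173) and Cd36 (-1.17, adjusted p = 0.255), which carry fatty acids in fat cells, macrophages and endothelium, and Ehhadh (-0.50), a peroxisomal enzyme. Adipocyte markers, 5 measured, had medians of -0.30, -1.04 and -1.12 relative to the control mean in the mutants, and of -0.75 in control replicate 3, and their part in these values was not tested. Of 10 LXR targets, 4 had positive and 6 negative log2 fold changes. Srebf1 (0.41, adjusted p = 0.130), Scd2 (1.28, adjusted p = 0.182) and Lpcat3 (0.33), all genes of lipid synthesis, had higher signal while Nr1h3 had lower. Mylip (-0.45) and Npc1l1 (-0.24) had lower signal at or below an unadjusted p of 0.05. Abca1 did not reach that threshold (-0.97, adjusted p = 0.393, and -0.46 without mutant replicate 2), though every mutant lay below every control. Of 9 mineralocorticoid targets, Scnn1b (1.42, adjusted p = 0.133, and 1.04 with adjusted p = 0.0288 without control replicate 2) and Scnn1a (0.56), subunits of the epithelial sodium channel, were higher, and the sodium pump subunit Atp1b1 (-0.43, adjusted p = 0.160) and the deubiquitinase Usp2 (-0.57, adjusted p = 0.350) lower, at or below an unadjusted p of 0.05. None of 8 retinoic acid receptor targets and none of 6 LRH-1 targets passed even that threshold in limma. Of 8 thyroid hormone targets, 2 were higher and 3 lower at that threshold. Bcl3, an atypical IκB protein (0.64, adjusted p = 0.105), and Me1, malic enzyme (0.93, adjusted p = 0.174), were higher, and the deiodinase Dio1 (-1.05, adjusted p = 0.0928), Klf9 (-0.80) and the enterocyte phosphatase Alpi (-1.97, adjusted p = 0.251) lower. Of 7 estrogen targets, Greb1, a growth regulator, had 1.20 (adjusted p = 0.131), Ctsd, a lysosomal protease, 0.57 and Xbp1, a factor of the unfolded protein response, -0.89 (adjusted p = 0.172). Of 9 targets of the estrogen-related receptors, Ckmt2, a mitochondrial creatine kinase, had -0.93 (adjusted p = 0.0547) and Cycs, cytochrome c, 0.28. Among 12 immediate early genes, which are induced together with the NR4A receptors, Ier3 (1.28, adjusted p = 0.0912) and Egr1 (0.59, adjusted p = 0.146) were higher at or below an unadjusted p of 0.05 and none lower, while Nr4a1 itself had a negative value. Ppargc1a, the coactivator that works with PPAR and estrogen-related receptors, had 6.70, 6.95 and 6.19 in the mutants, against 7.84, 7.36 and 7.94 in the controls, without overlap (-1.11, SE 0.23, adjusted p = 0.123). None of the 16 coregulators measured passed the test, and 2 were higher and 3 lower at or below an unadjusted p of 0.05 (10.0% and 6.18% of all genes), among them Tbl1x, of the corepressor complex (0.32), and Ncoa4, which also carries ferritin to lysosomes (-0.26).

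**Figure D4:**
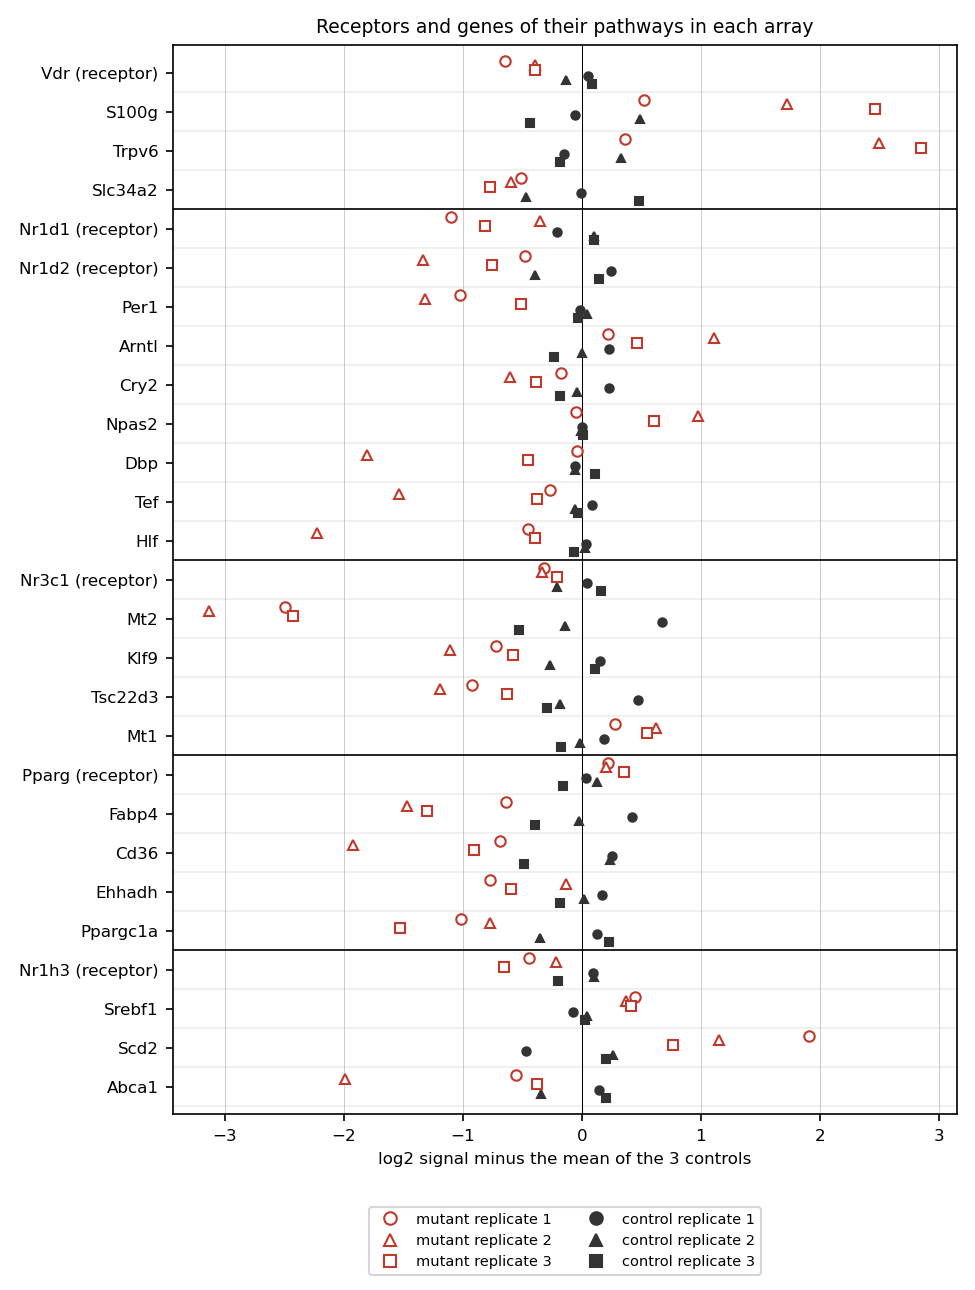
Deviation of the log2 signal from the control mean (horizontal axis) in each array for 6 receptor genes and genes of their pathways; open symbols are the 3 mutants and filled symbols the 3 controls. S100g and Trpv6 lie to the right of the controls in mutant replicates 2 and 3 while Vdr lies to the left, and Mt2 lies to the left of the controls in every mutant.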

How the data were processed

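Arrays of 3 Hnf4α mutants and 3 controls were compared. Per the labels, the authors summarised and normalized the arrays by RMA, and the deposited values are log2 signals, used as given. RMA makes the distributions of the arrays alike, so a change common to most genes would not be seen. Array medians lay between 5.43 and 5.53. Of 45101 probe sets, 64 controls were left out and 45037 tested in limma 3.58.1 (R 4.3.3) with Benjamini-Hochberg adjustment over all of them. Platform annotation gave 34945 of these 1 gene, 932 several and 9160 none. Each gene was represented by its probe set of highest mean, and symbols in the annotation can be old. The code was tested on simulated data. SAM statistics were compared over all 20 label permutations. Genes were named when among the 8 highest control signals, at an unadjusted p of 0.05 or less, or at an absolute log2 fold change of 1 or more, and the others to account for all members. Target genes were named when past the test, otherwise up to 3 per list by smallest p. Mt1, Tsc22d3, Usp2, Me1, Alpi, Cyp2c65, Alas1, Gstm1, Cyp3a13, Cyp3a25, Cyp3a11, Mylip, Npc1l1, Abca1 and further genes plotted were chosen after their values were seen. Members, target lists and marker lists were chosen with earlier results of these data known. Promoters came from RefSeq, and probe positions were not analysed here. The number of mice limits the precision. Alternatives included leaving out each array, array weights, a trended and robust variance, averaged probe sets, quantile normalization, median centring, a replicate block and a filter at a mean log2 signal of 5.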

Additional observations from a re-analysis of the deposited data

How the results depend on the processing

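With one array left out at a time, between 0 and 1 receptors rose (Rarb, 1.61, adjusted p = 0.0425, without mutant replicate 1), 0 fell, and at an unadjusted p of 0.05 or less 2 to 6 were higher (6 without control replicate 2) and 2 to 6 lower (2 without control replicate 1 and 3 without mutant replicate 3). The higher count of 3 became 6 with array weights and 5 with averaged probe sets or a trended, robust variance. The lower count of 6 became 8 with array weights. It became 4 with median centring, dim probe sets left out, averaged probe sets or a trended, robust variance. The median log2 fold change ran between -0.08 and -0.04 with one array left out, and was -0.019 with each array centred on its median. Esrra, -0.03, changed sign, to 0.025 without mutant replicate 1 (-0.079 without mutant replicate 2) and 0.00076 with median centring, and the other 12 receptors followed through all settings kept their direction. Among target genes, 0 to 1 rose and 0 to 2 fell with one array left out. With array weights, averaged probe sets, or a trended, robust variance 1 rose, and 4 fell with each of the first pair. SAM called 0 falls. The deviations of same-numbered mutants and controls had r of -0.02, 0.25 and -0.15, so only replicate 2 leaned together, and the numbers were not taken to pair mice. With the replicate block 4 receptors were higher, 5 lower and none called, and 1 target gene fell. The block took the SE of Nr1d2 from 0.26 to 0.10 (adjusted p = 0.0788 from limma). The SEs of Vdr, Pparg, Ppard, Esrra, Nr3c2 and Nr1i2 were higher with it. Rarb has no value with dim probe sets left out, since its mean signal is under the filter.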
